A study of Mus musculus with 2 samples.

Results

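The potassium channel genes described here were the 94 of 21911 protein-coding genes of the GENCODE M21 annotation whose symbol starts with Kcn, chosen by name alone and sorted into 20 subfamilies by the letter after Kcn. Open chromatin was read out by DNase-seq, in which the enzyme DNase I cuts accessible DNA, in the gastrocnemius, a calf muscle. A single group was sampled, with 2 libraries that the labels number as biological replicates, and no treatment or other condition. Both came from female B6CASTF1/J mice, a first-generation hybrid of a laboratory strain and a CAST strain, aged 10 days, and each library was made from 3 pooled females. All coordinates are on mm10. The printed sequences are those of the GRCm38 reference, from which the CAST allele of these hybrids may differ.

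Potassium channels set the resting potential of a cell and end its action potentials. In skeletal muscle, inward rectifiers hold the resting membrane of the fibre, voltage-gated channels repolarize it, and channels sensitive to ATP or calcium tie it to metabolism and to the calcium of contraction. Most of the family is better known from neurons, where axons, cell bodies and dendrites carry different members. The name Kcn also covers accessory proteins, among them the cytoplasmic beta subunits (Kcnab), the small membrane subunits (Kcne), the calcium-binding Kcnip proteins, the beta subunits of the large-conductance calcium-activated channel (Kcnmb) and the regulator Kcnrg.

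The deposited peak list used for each library held 114758 peaks in replicate 1 and 26804 in replicate 2, so replicate 1 was also taken at its 26804 tallest peaks, called equal number here. Peak height is the authors' depth-normalized signal, whose scale is not stated. With 1 group of 2 libraries no test between samples was possible: each value belongs to 1 library, and the difference between the libraries is itself the replicate spread. The libraries differed in how many marker genes had a promoter peak, most for the neuron list. Over all protein-coding genes the shares were 66.7% in replicate 1, 49.6% at equal number and 51.4% in replicate 2. Of 15 neuron markers, all 15 had a promoter peak in replicate 1, 13 at equal number and 7 in replicate 2. Their tallest promoter peaks summed to a height of 98.7 over the 15 genes in replicate 1 and 8.55 over the 7 in replicate 2, beside 116176 and 25010 over all protein-coding genes with one. Their median stood at percentile 91.3 of the peaks of replicate 1 and 36.7 of those of replicate 2, beside 91.0 and 73.0 for all genes. Of 15 skeletal muscle markers, 9, 5 and 7 had one, with sums of 50.8 in replicate 1 and 17.6 in replicate 2 and median percentiles of 80.0 and 77.2. Ckm, Actn3, Slc2a4, Mef2d and Myf6 had one in both libraries, and Myod1, Ryr1, Myh8 and Cacna1s in replicate 1 alone. Acta1 and Pygm had one in replicate 2 alone, and Myog, Des, Tnnt3 and Myh4 in neither. Of 15 Schwann cell markers 9, 4 and 6 had one, and of 15 endothelial and mural cell markers 6, 0 and 5, where the last list shares Des with the muscle markers. Every count below is given for each library.

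A promoter peak, one with a base at most 1 kb from any annotated transcription start site (TSS) of the gene, was found at 71 of the 94 channel genes in replicate 1, beside 66.7% of all protein-coding genes. At equal number the count was 28, beside 49.6%. In replicate 2 it was 25, beside 51.4%. A promoter peak shared by both libraries, with an overlap of at least 50% of either peak, was found at 18, beside 45.1%. As shares of the family these are 75.5% in replicate 1, 29.8% at equal number, 26.6% in replicate 2 and 19.1% for shared peaks. The family thus stood above the background with all 71 genes of replicate 1 counted and below it in the other counts.

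How the 94 genes divided shows the same gap. Replicate 1 and not replicate 2 had a promoter peak at 46 of them, beside 15.7% of all genes, and the opposite case was met at 0, beside 0.461%. Both libraries had promoter peaks that were not shared at 7, beside 5.95%, and neither had one at 23, beside 32.8%. The 15 neuron markers split in a like way, 8 with a promoter peak in replicate 1 and not in replicate 2 and 0 the other way, and the part of neuronal chromatin in the channel gene counts was not tested. At equal number 16 channel genes had one in replicate 1 alone, beside 5.25%, and 13 in replicate 2 alone, beside 7.08%.

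**Figure D1:**
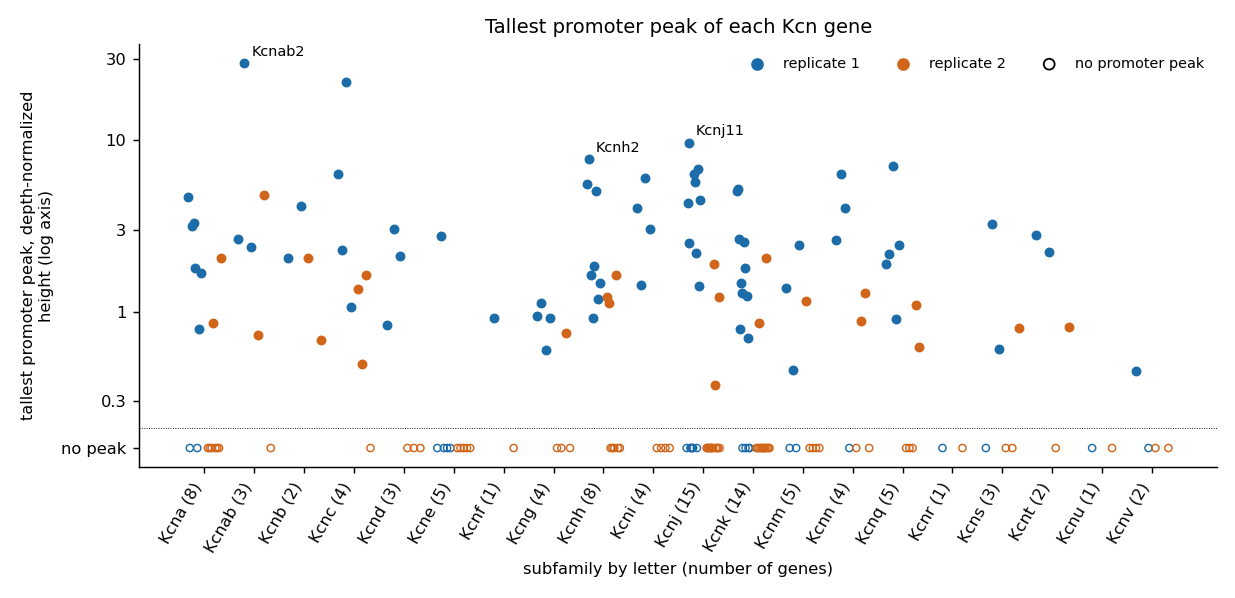
Depth-normalized height of the tallest promoter peak of each of the 94 Kcn genes (log axis) by subfamily, 1 point per gene and library, with open circles for genes without a promoter peak. Kcnab2 is the highest point of each library, at 28.2 in replicate 1 and 4.83 in replicate 2, and 69 of the 94 genes have no promoter peak in replicate 2.

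The promoter peaks of the channel genes were low in both libraries and, in replicate 1, often several to a gene. Their median height was 1.38 in replicate 1 (192 peaks) beside 2.12 for the promoter peaks of all genes, and 0.868 in replicate 2 (38 peaks) beside 1.62. Ranked within its library, the median promoter peak of a channel gene stood at percentile 56.0 in replicate 1 and 16.1 in replicate 2, where those of all genes stood at 70.3 and 56.9. In replicate 1, 35 channel genes had 3 or more promoter peaks, beside 20.8% of all genes, among them Kcnt1 with 8, Kcnn2 with 7 and Kcnh2 and Kcnj3 with 6. These counts include peaks that overlap others of the same list, as at Kcnn2 and Kcnj3. They also add up over all start sites of a gene, of which Kcnt1 has 15 and Kcnn2 7. In replicate 2, 9 had 2 or more, beside 24.2%. Promoter peaks lie near a TSS by definition. Of the 192 midpoints in replicate 1, 62 fell in the 250 bp before the nearest TSS and 42 in the 250 bp after it. Of the 38 in replicate 2, 12 and 6 did. The 7 peaks of replicate 1 that reached the last 100 bp inside the 1 kb limit had a median height of 0.889, and the 5 in the first 100 bp outside it 0.919. In replicate 2 the 1 peak inside, at Kcnh2, had 1.13, and the 2 outside, at Kcnk13 and Kcnip2, had 0.879 and 2.06.

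Intervals with a false discovery rate (FDR) of at most 0.05, deposited beside the peak lists and made from the same alignments, were counted over the same windows. Such intervals covered a median of 20.9% of the bases within 1 kb of a TSS of a channel gene in replicate 1, beside 16.4% for all genes, and 0.112% in replicate 2, beside 7.82%. The number of channel genes without any such base was 12 in replicate 1, or 12.8% beside 28.2% of all genes, and 47 in replicate 2, or 50% beside 39.1%. Replicate 2 had more open bases than replicate 1 at 4 channel genes, or 4.26%, beside 6.92% of all genes. Among them were Kcna7 with 405 open bases in replicate 2 and 289 in replicate 1, Kcnk5 with 1108 and 515, and Kcnk13 with 1132 and 858.

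Most channel genes had promoters of middle or high CpG content. The ratio of observed to expected CpG in the 1 kb around the TSS was low (under 0.4) at 30 of the 94 genes, middle at 38 and high (0.7 or more) at 26, which is 31.9%, 40.4% and 27.7% beside 39.5%, 25.6% and 34.9% of all genes. In the high class 25 of 26 channel genes had a promoter peak in replicate 1, or 96.2% beside 98.0%. At equal number the share was 34.6% beside 86.0%, in replicate 2 34.6% beside 86.9%, and for shared peaks 19.2% beside 77.7%. The middle class had 92.1% beside 86.8% in replicate 1, 42.1% beside 58.7% at equal number, 31.6% beside 63.0% in replicate 2 and 26.3% beside 54.0% for shared peaks. In the low class the share in replicate 1 was 36.7% beside 25.9%. It was 10.0% beside 11.5% at equal number, 13.3% beside 12.5% in replicate 2 and 10.0% beside 10.4% for shared peaks. Had each class followed all genes, 50.3 members would have had a promoter peak in replicate 2 and 43.8 a shared one, where 25 and 18 did.

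**Figure D2:**
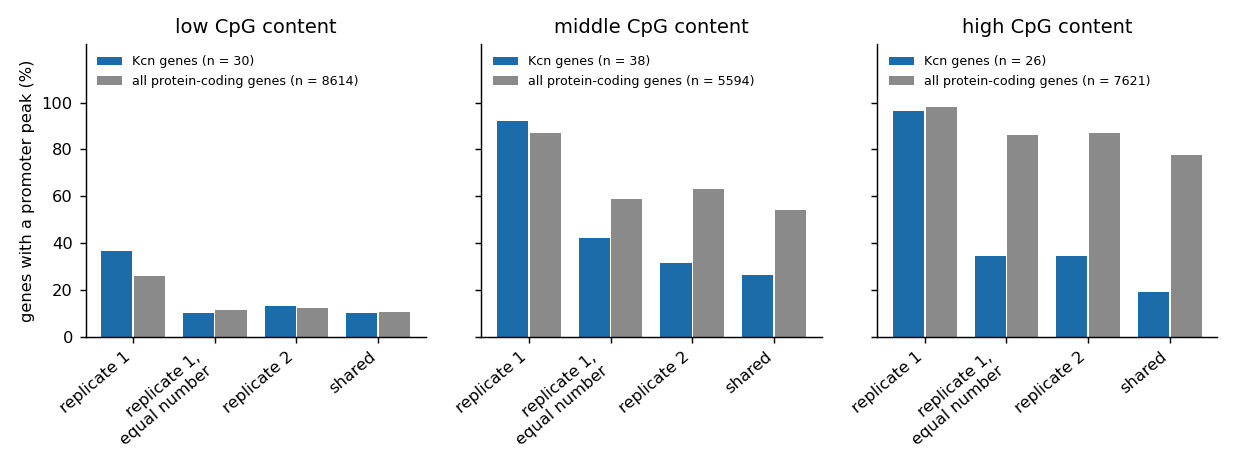
Share of genes with a promoter peak (percent) for Kcn genes and all protein-coding genes in 3 classes of promoter CpG content, each bar a share of the genes in that class. In the high class the Kcn bars fall from 96.2% in replicate 1 to 34.6% at equal number and in replicate 2, while the bars of all genes stay at 86.0% or more in these 3 settings.

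Among the voltage-gated channels, Kcna7, a shaker-type channel of skeletal muscle and heart, had a promoter peak of like height in each library. It had the same edges in both libraries, at chr7:45405181-45405340, with a height of 1.68 in replicate 1 and 2.07 in replicate 2. The peak lay between genes with its midpoint at -392 bp from the TSS, where a minus sign means before it. It held 4 footprints in replicate 1 and 2 in replicate 2, and both of the latter overlapped footprints of replicate 1. A footprint is a short stretch of an open site that DNase I cuts less than its surroundings. Its sequence is shown because footprints of both libraries fell on the same stretches of it; it runs 5′ to 3′ on the plus strand, that of the gene, with the 51 bases in footprints of both libraries in capitals.
Kcna7 promoter peak: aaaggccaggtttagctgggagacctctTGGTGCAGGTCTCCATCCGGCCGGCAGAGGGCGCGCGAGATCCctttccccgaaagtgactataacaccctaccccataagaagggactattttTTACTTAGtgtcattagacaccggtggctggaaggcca

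The other shaker-type (Kcna) genes differed from Kcna7. Kcna3, known from lymphocytes, had a shared promoter peak of 3.29 in replicate 1 and 0.858 in replicate 2. Kcna1 and Kcna2, the channels beside the nodes of myelinated axons, each had 5 promoter peaks in replicate 1, the tallest of 4.70 and 3.16, and 0 in replicate 2. Kcna4 (1.80) and Kcna6 (0.788) also had promoter peaks in replicate 1 alone, and Kcna5 and Kcna10 had none. Of the 8 genes, 6 had a promoter peak in replicate 1, 3 at equal number and 2 in replicate 2.

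The shab-type (Kcnb) and shaw-type (Kcnc) channels, which repolarize neurons with slow and with fast kinetics, had promoter peaks at all 6 genes in replicate 1 and at 5 in replicate 2. Kcnb2 (4.14 and 0.633) and Kcnc2 (0.555 and 0.493, beside a taller one of 2.28 in replicate 1) were among those with a shared one. At Kcnc1 the nearest promoter peaks, of 6.40 and 1.36, lay 198 bp apart. Kcnc4, which pairs with Kcne3 in muscle, had 5 promoter peaks of 0.811 to 1.07 in replicate 1 and 0 in replicate 2.

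The shal-type channels (Kcnd) and the Kcnip proteins that bind them carry the transient outward current of heart and neurons. Of these 7 genes all had a promoter peak in replicate 1 and 0 had one in replicate 2. Kcnip3 reached 6.01, Kcnip1 4.01, Kcnd2 3.05 and Kcnip4 3.02 in replicate 1. Kcnd3 (2.11), Kcnip2 (1.44) and Kcnd1 (0.841) were not among the tallest peaks at equal number. Just outside the 1 kb limit, Kcnip2 had a shared peak of 6.23 and 2.06, with its midpoint in replicate 1 at -1190 bp.

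The ether-a-go-go type channels (Kcnh) all had a promoter peak in replicate 1, and 3 of 8 did in replicate 2. Kcnh1 had a shared one of 5.54 and 1.22. Kcnh2, the channel of the rapid delayed rectifier current of the heart, had 6 promoter peaks in replicate 1, up to 7.80, and 1 in replicate 2 of 1.13 that lay 43 bp from the nearest of them. At Kcnh6 the peaks of 5.05 and 1.64 lay at different start sites, 5540 bp apart. Kcnh5, Kcnh8, Kcnh3, Kcnh7 and Kcnh4 had peaks of 0.919 to 1.84 in replicate 1 alone.

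In the Kcnq family, which includes the M-current channels, all 5 genes had a promoter peak in replicate 1 and 2 did in replicate 2. Kcnq3, known from the M current of neurons, had a promoter peak of 7.08 in replicate 1 and none in replicate 2. Kcnq5 had a shared peak of 1.17 and 0.536 among its 2 in replicate 1, up to 2.46, and 3 in replicate 2, up to 0.622. Kcnq1, the slow delayed rectifier of the heart, had 1.89 in replicate 1 alone.

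The silent subunits (Kcnf, Kcng, Kcns and Kcnv), which form channels only with shab-type partners, had a promoter peak at 8 of 10 genes in replicate 1 and at 2 in replicate 2. Kcns3 had shared promoter peaks, the tallest of 0.609 and 0.804, with 3 in replicate 1 and 4 in replicate 2, some of which overlap others of the same list. Kcng3 had 3 promoter peaks in replicate 1, the tallest of 0.597, and 1 in replicate 2 of 0.750, which lay 157 bp from the nearest of them, the one of 0.418. Kcns2 (3.25), Kcng2 (1.12), Kcng1 (0.943), Kcng4 (0.913), Kcnf1 (0.913) and Kcnv1 (0.448) had promoter peaks in replicate 1 alone, and Kcns1 and Kcnv2 in neither.

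Among the accessory subunits, Kcnab2, a beta subunit of shaker-type channels expressed in muscle and nerve, had the tallest promoter peak of the family in both libraries, 28.2 and 4.83, and all 3 of its footprints in replicate 1 overlapped footprints of replicate 2. That peak also lay within 1 kb of a TSS of Nphp4, so it cannot be given to Kcnab2 alone. Kcnab1 had a shared peak of 2.66 and 0.729 and Kcnab3 one of 2.37 in replicate 1. Of the 5 Kcne genes, Kcne1, Kcne2, Kcne3 and Kcne4 had no promoter peak in either library, and Kcne1l had one of 2.77 in replicate 1. Their promoters were CpG-low at 4 of 5. Kcne3, the muscle partner of Kcnc4, had 178 open bases of 4207 in replicate 1 and 81 in replicate 2.

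Of the 15 inward rectifiers (Kcnj), 9 had a promoter peak in replicate 1, 6 at equal number, 3 in replicate 2 and 2 a shared one. Kcnj2, which carries most of the resting potassium conductance of muscle fibres, had promoter peaks in both libraries, of 6.35 in replicate 1 and 1.90 in replicate 2. They overlapped by 60 bp, under the 50% asked of a shared peak. Kcnj11, the pore of the ATP-sensitive channel of muscle and pancreas, had the tallest promoter peak among those found in replicate 1 alone, 9.70, and 665 open bases of 4339 in replicate 2 without a peak. Kcnj12, a second muscle inward rectifier, had 2.52 in replicate 1. Kcnj8, the ATP-sensitive pore of vessel walls, had a shared peak of 1.41 and 1.21, and Kcnj3, a G protein-gated channel of heart and neurons, one of 1.35 and 0.375 beside a taller one of 5.74 in replicate 1. Its neuronal relatives Kcnj6 (6.84) and Kcnj9 (4.50), the glial Kcnj10 (4.32) and Kcnj4 (2.21) had promoter peaks in replicate 1 alone. Kcnj1, Kcnj5, Kcnj13, Kcnj14, Kcnj15 and Kcnj16, several of which are known from kidney and other epithelia, had none.

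The two-pore channels (Kcnk), which carry background leak currents, had promoter peaks at 10 of 14 genes in replicate 1 and at 2 in replicate 2. Kcnk5 had a shared peak that was higher in replicate 2, 2.07, than in replicate 1, 1.24. Kcnk13 had one of 0.662 whose partner in replicate 2, of 0.879, had its midpoint 1116 bp after the TSS, and the other promoter peaks of the gene reached 0.788 and 0.858. Kcnk10 (5.21), Kcnk1 (5.08), Kcnk12 (2.67), the mechanosensitive Kcnk2 (2.56), Kcnk3 (1.80), Kcnk15 (1.47), Kcnk16 (1.28) and Kcnk6 (0.698) had promoter peaks in replicate 1 alone. Kcnk4, Kcnk7, Kcnk9 and Kcnk18 had none, and Kcnk9 was the one CpG-high channel gene without a promoter peak.

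Among the channels opened by calcium or sodium, Kcnn3 and Kcnma1 had shared promoter peaks. Kcnn3, the small-conductance channel of immature and denervated muscle, had heights of 4.03 and 1.29 at chr3:89519941-89520140. Kcnma1, the large-conductance channel of muscle, nerve and vessel, had 1.38 and 1.15. Kcnn2 had 7 promoter peaks up to 6.40 in replicate 1 and 2 up to 0.879 in replicate 2, which overlapped by 100 bp at the nearest. The sodium-activated Kcnt2 had a shared peak of 2.22 and 0.815. Kcnt1 (2.81), Kcnn1 (2.63), Kcnmb4 (2.46) and Kcnmb2 (0.459) had promoter peaks in replicate 1 alone, and Kcnn4, Kcnu1, Kcnmb1, Kcnmb3 and the regulator Kcnrg had none. Across the 18 genes, the heights of the shared promoter peaks in the 2 libraries correlated with a Spearman rho of 0.463 and, on the log scale, a Pearson r of 0.590. The points are genes of the same 2 libraries, not samples.

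Channels known from skeletal muscle were compared with channels known from neurons, glia and vessel walls by 2 lists chosen for their known function. Of 12 muscle channels, 10 had a promoter peak in replicate 1, 4 at equal number, 6 in replicate 2 and 4 a shared one (Kcna7, Kcnn3, Kcnma1 and Kcnab2). Of the 10 others, 10, 7, 4 and 2 did. At equal number and in replicate 2 the muscle channels thus had 4 and 6, or 33.3% and 50%, and the others 7 and 4, or 70.0% and 40%, beside 49.6% and 51.4% of all genes. These are differences of a few genes and were not tested. Of 21 partner genes of potassium handling, 17 had a promoter peak in replicate 1, 10 at equal number, 8 in replicate 2 and 5 a shared one. Tmem38a, a potassium channel of the sarcoplasmic reticulum, had 10.9 and 3.91, and the sodium pump subunit Atp1b1 8.84 and 1.11. Abcc9, the regulatory partner of Kcnj11 in muscle, had 0.436 and 1.20, without a shared peak. Its pancreatic relative Abcc8 had 1.30 in replicate 1, and the chloride channel Clcn1 and the sodium channel Scn4a had none.

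**Figure D3:**
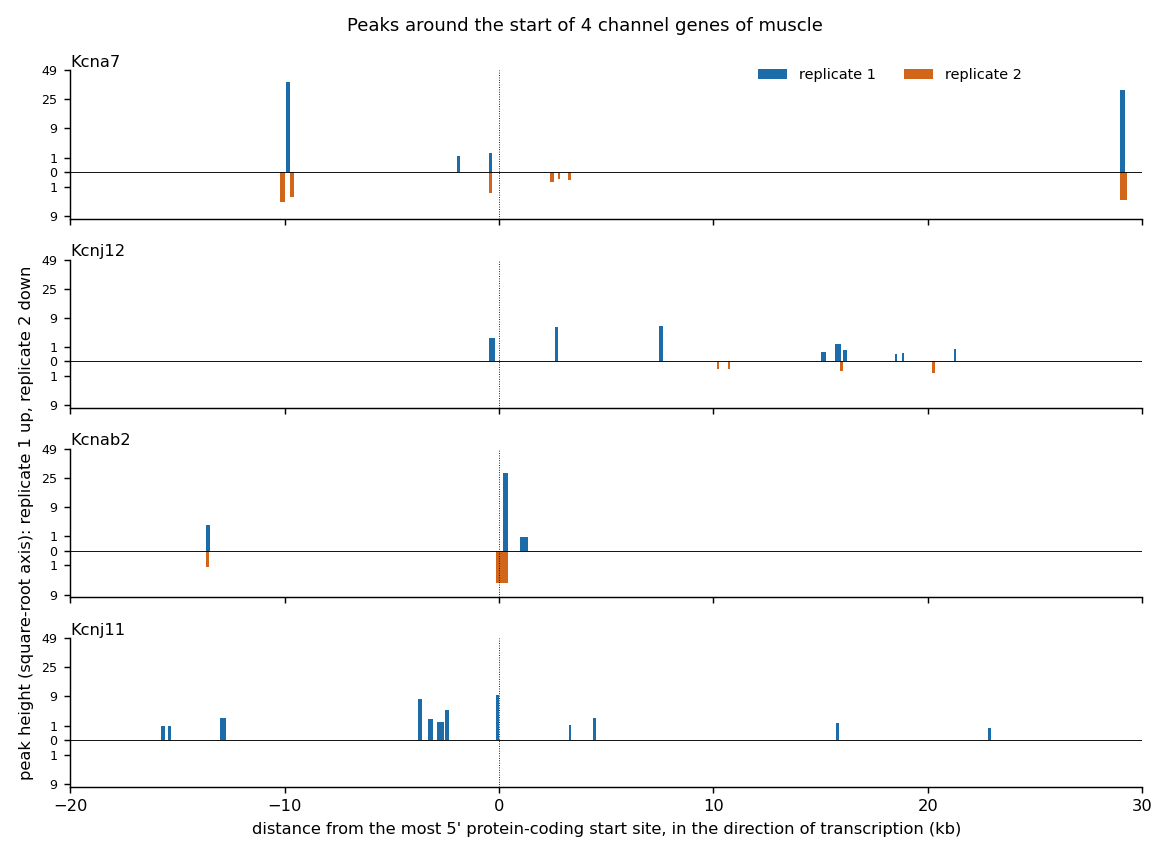
Peaks from 20 kb before to 30 kb after the most 5′ start site of 4 channel genes of muscle, with heights on a square-root axis, replicate 1 upward and replicate 2 downward, and peaks narrower than 120 bp drawn at that width. Kcna7 has its start-site peak in both libraries and 3 low peaks of replicate 2 within the gene, and the window of Kcnj11 has 12 peaks of replicate 1 and none of replicate 2. All peaks of each window are drawn, also those at other genes, such as the peak of 38.0 before Kcna7 in replicate 1.

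Distal peaks, which lie more than 1 kb from every protein-coding TSS and at most 50 kb from one of the gene's own, were frequent at the channel genes. In replicate 1, 91 of 94 had one, beside 84.0% of all genes, at equal number 61, beside 44.3%, in replicate 2 42, beside 40.1%, and 39 had a shared one, beside 35.4%. The median was 6 per channel gene in replicate 1, where all genes had 4. At equal number it was 1, where all genes had 0, and in replicate 2 it was 0 in both. Unlike the promoter peaks, the distal peaks were no lower than those of other genes, with a median height of 1.28 beside 1.13 in replicate 1 (670 peaks) and 1.55 beside 1.28 in replicate 2 (74 peaks). The libraries shared 60 of the 670, or 8.96% beside 9.80% for all genes, and 58 of the 74, or 78.4% beside 69.8%.

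Many of these peaks have another gene as their nearest. Of the 670, 357 lay in introns, 60 in exons and 253 between genes, and 476 had a channel gene TSS as the nearest protein-coding TSS. That held for 44 of the 74 in replicate 2 and for 29 of the 60 shared ones. Neighbours in the family also share distal peaks, as Kcnj9 with Kcnj10 and Kcnj1 with Kcnj5 do. The 9 peaks of replicate 1 in the last 1000 bp inside the 50 kb limit had a median height of 0.895 and the 16 in the first 1000 bp outside it 1.97.

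**Figure D4:**
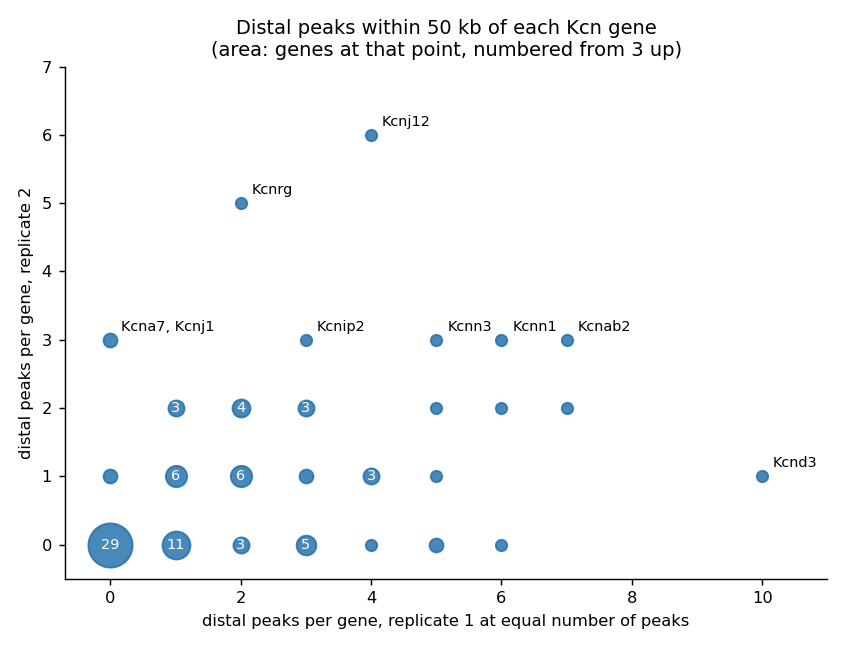
Number of distal peaks within 50 kb of each of the 94 Kcn genes, replicate 1 at equal number across and replicate 2 up, with the area of a circle growing with the number of genes at that point. Kcnd3 lies farthest right with 10 and 1 peaks, Kcnj12 highest with 4 and 6, and most genes lie at low counts in both libraries.

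The genes with the most distal peaks differed between the libraries. At equal number Kcnd3 had 10, of which 6 lay in or over Inka2 and 4 had a TSS of Kcnd3 as the nearest. The tallest, of 14.0, lay in an intron, 17849 bp after a TSS of Kcnd3, and had no counterpart in replicate 2, which had 1 distal peak at this gene, in Inka2. Kcnab2 had 7, and Kcnc4, Kcnj6 and Kcnn1 had 6 each. Kcnj6, a channel of neurons, had 24 distal peaks in the whole list of replicate 1 and 0 in replicate 2. In replicate 2 Kcnj12 led with 6, followed by Kcnrg with 5 and Kcna7, Kcnab2, Kcnip2, Kcnj1, Kcnn1 and Kcnn3 with 3. Kcnrg, which had no promoter peak, had the most shared distal peaks, 4. One lay at -35886 bp and the other 3 between 39939 and 41379 bp after its TSS, the tallest of them 13.4 in replicate 1 beside 2.20 in replicate 2. Across the 94 genes the distal counts of the 2 whole lists had a Spearman correlation of 0.420.

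Counted per gene, 22 of the 76 distal peaks of replicate 2 lay at the 12 muscle channels. The same 12 genes had 143 of the 701 in replicate 1 and 34 of the 168 at equal number. The 16 distal peaks of that library that were not shared lay at 8 genes. Muscle channels had 10 of them, among these Kcnj12, Kcna7 and Kcnn3, and the share of the muscle channels in these counts was not tested. Kcnj12 held 4 of the unshared peaks in its introns, of 0.268 to 0.600, between 10219 and 20247 bp after the TSS. Kcna7 held 3 within the gene, of 0.440, 0.225 and 0.268. Kcnn3 had one of 0.997, Kcnk9 one of 1.35 and Kcnk5 one of 0.182, and Kcnj1 and Kcnrg had 2 each. All except the one of 1.89 at Kcnrg were below the median peak of the library, 1.48. With the taller 50% of each list, Kcnj12 and Kcna7 had 0 distal peaks in replicate 2.

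The shared distal peaks differed from the others in how many held a CTCF consensus, at the channel genes as over all genes. The consensus of CTCF, a factor that bounds chromatin loops in nearly all cell types, was searched on both strands in the central 150 bp of each peak. It matched exactly in 16 of the 60 shared distal peaks, or 26.7%, and in 35 of the 610 that were not shared, or 5.74%. Over all genes the shares were 22.0% and 5.34%. Since other shared peaks held near matches, the search was repeated with at most 1 of the 12 letters differing, a choice made after the sequences were seen. Then 43 of the 60 shared distal peaks matched, or 71.7%, and 104 of the 610 others, or 17.0%, beside 49.7% and 17.2% over all genes. From the side of replicate 2, 41 of 58 shared and 0 of 16 unshared distal peaks matched, beside 46.8% and 2.64% over all genes. Promoter peaks of channel genes held no exact match in either library, beside 1.52% over all genes in replicate 1 and 1.00% in replicate 2. With 1 letter differing 12 of 192 matched in replicate 1, or 6.25% beside 7.14%. One of these 12 was the shared peak of Kcna7.

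**Figure D5:**
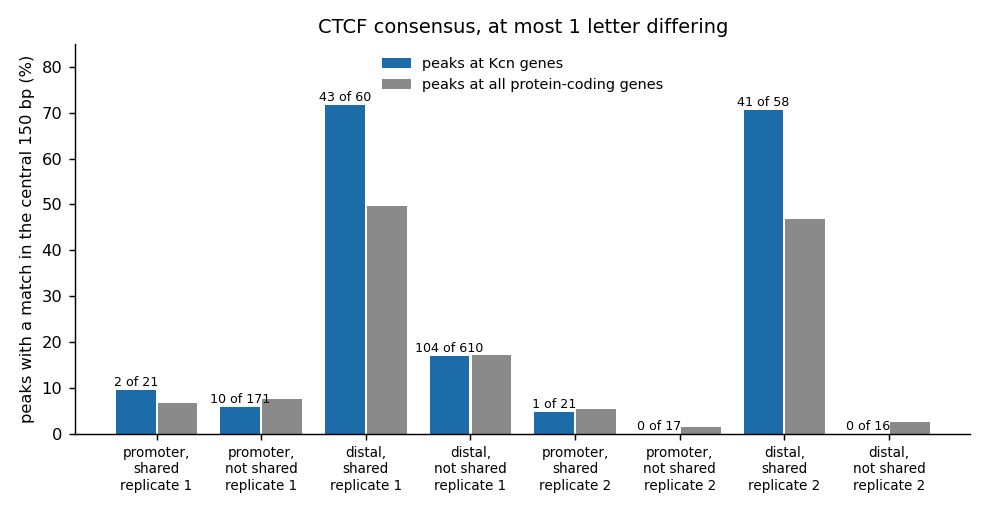
Share of peaks (percent) with a CTCF consensus match in their central 150 bp when at most 1 of 12 letters may differ, for peaks at Kcn genes (with counts) and at all protein-coding genes. Shared distal peaks stand at 71.7% in replicate 1 and 70.7% in replicate 2, and the unshared distal peaks at 17.0% and 0.

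Footprints covered the exact matches. In all 16 shared distal peaks with an exact match, all 12 bases of a match lay in footprints of both libraries, which held for 79.5% of the 1146 such peaks over all genes, while footprints of both libraries covered 21.3% and 19.6% of the bases of these peaks. The sequences below are shown to set the footprints beside the letters: 2 peaks with exact matches (Kcnip3 and Kcnk18), and 5 peaks with 1 letter differing whose edges were the same in both libraries. They were picked from these values. Each runs 5′ to 3′ on the strand of its gene with the bases in footprints of both libraries in capitals.
Kcnip3, chr2:127507201-127507400, minus strand, intron, heights 4.74 and 2.08: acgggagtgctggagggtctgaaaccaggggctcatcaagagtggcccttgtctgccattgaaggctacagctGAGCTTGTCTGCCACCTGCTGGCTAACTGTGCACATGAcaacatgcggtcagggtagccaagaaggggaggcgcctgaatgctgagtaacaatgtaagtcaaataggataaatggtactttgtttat
Kcnk18, chr19:59239581-59239740, plus strand, 2 matches, heights 4.34 and 2.92: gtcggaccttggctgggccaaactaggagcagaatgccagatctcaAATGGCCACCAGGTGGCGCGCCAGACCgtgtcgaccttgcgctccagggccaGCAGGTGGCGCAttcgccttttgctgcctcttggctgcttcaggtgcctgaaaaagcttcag
Kcnab2, chr4:152434921-152435120, minus strand, intron, heights 9.25 and 2.35: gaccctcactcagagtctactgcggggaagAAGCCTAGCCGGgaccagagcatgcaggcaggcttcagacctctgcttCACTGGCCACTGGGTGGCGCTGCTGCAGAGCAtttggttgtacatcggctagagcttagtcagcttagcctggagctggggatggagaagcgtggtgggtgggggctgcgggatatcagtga
Kcne2, chr16:92286701-92286880, plus strand, -5598 bp from the TSS, heights 6.28 and 2.13: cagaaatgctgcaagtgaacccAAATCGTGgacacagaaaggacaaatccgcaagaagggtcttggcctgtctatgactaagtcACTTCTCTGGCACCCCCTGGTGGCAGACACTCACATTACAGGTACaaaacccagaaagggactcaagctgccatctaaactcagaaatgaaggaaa
Kcnn1, chr8:70841141-70841340, minus strand, 9498 bp after the TSS, heights 4.92 and 4.49: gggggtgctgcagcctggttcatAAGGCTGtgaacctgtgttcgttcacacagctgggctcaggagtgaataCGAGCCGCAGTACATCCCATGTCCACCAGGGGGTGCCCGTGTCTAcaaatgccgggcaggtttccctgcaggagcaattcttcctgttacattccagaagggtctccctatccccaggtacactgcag
Kcnrg, chr14:61571481-61571660, plus strand, -35886 bp from the TSS, heights 3.84 and 1.64: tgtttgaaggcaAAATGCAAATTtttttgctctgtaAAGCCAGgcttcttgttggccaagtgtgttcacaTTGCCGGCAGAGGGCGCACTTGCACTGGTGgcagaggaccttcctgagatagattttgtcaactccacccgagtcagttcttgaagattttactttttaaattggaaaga
Kcns3, chr12:11178861-11179020, minus strand, -27885 bp from the TSS, heights 5.49 and 1.30: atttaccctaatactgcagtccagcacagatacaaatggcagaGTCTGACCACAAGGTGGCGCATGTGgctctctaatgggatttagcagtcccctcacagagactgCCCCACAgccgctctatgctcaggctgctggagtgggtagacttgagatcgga

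Written along the consensus, with the differing letter in capitals, the near matches of these peaks and of the Kcna7 promoter can be compared letter by letter.
Kcna7: ccGgcagagggc
Kcnrg: ccGgcagagggc
Kcnab2: ccactGggtggc
Kcne2: ccaccagggggT
Kcnn1: ccaccagggggT
Kcns3: ccacAaggtggc
In these 6 peaks all 12 bases lay in footprints of both libraries. Full coverage did not hold for every near match: in shared distal peaks at Kcna6 and Kcnc1, 7 and 11 bases were covered. The stretches of Kcna7 and Kcnrg had the same 12 letters. A match of letters describes the sequence and is no measurement of the factor.

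The E-box CAGCTG, a site of the myogenic factors, matched on both strands in 126 of the 670 distal peaks of replicate 1, or 18.8% beside 17.9% for all genes, and in 22 of the 192 promoter peaks, or 11.5% beside 11.4%. In replicate 2 it matched in 9 of 74 distal and 2 of 38 promoter peaks, or 12.2% beside 14.6% and 5.26% beside 8.73%. The MEF2 consensus, bound by partners of the myogenic factors, matched in 6 distal peaks of replicate 1, or 0.896% beside 0.723%. It also matched in 3 promoter peaks of replicate 1 (Kcna2, Kcnj9 and Kcnn2), or 1.56% beside 0.315% of the promoter peaks of all genes, and none of the 3 was shared. The consensus of REST, a repressor of neuronal genes, matched in 1 distal peak of each library. The shares were 0.149% beside 0.0582% for all genes in replicate 1 and 1.35% beside 0.446% in replicate 2. The peaks lay at Kcnk10 in replicate 1 and at Kcnk9 in replicate 2. The latter, of 1.35, was found in replicate 2 alone, at -22393 bp from the TSS of Kcnk9, and is shown on the minus strand, that of the gene, with the match in capitals because no other distal peak of a channel gene in that library held one.
Kcnk9, chr15:72568668-72568797: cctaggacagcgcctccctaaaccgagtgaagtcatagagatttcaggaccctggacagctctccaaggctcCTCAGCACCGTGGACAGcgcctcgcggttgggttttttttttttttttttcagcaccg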

How the data were processed

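The 2 DNase-seq libraries of gastrocnemius were used, and, per the labels, each came from its own pool of animals. Per the notes deposited with the files, the peaks, FDR intervals and footprints were made on mm10 from the filtered alignments of each library alone; which aligner and callers made them, and with which settings, is not given in the sources used here. Peak height as deposited is a signal that the authors normalized to read depth. The deposited FDR is a p-value corrected by the authors, and all intervals were at most 0.05. The deposited footprint score is 0.01 throughout and ranks nothing. Read totals were not used here, so precision is limited to the spread between the 2 libraries.

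From these, the shorter peak list of each library was joined to all TSSs of the 21911 protein-coding gene symbols of GENCODE M21. Subfamily letters, distances, overlaps, CpG ratios and 11 motifs were computed in Python 3.11.15 with numpy 2.4.6, pandas 2.3.3 and matplotlib 3.10.9. Sequences came from the RefSeq copy of GRCm38, in which no peak ran past a chromosome end (21 compared). The joins were tested on simulated data in 6 checks, with 0 differences, using bedtools 2.31.1 for overlaps. No test between groups was possible with 1 group.

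The members and the gene lists were chosen with earlier results of these data known. The text names 12 channels of muscle and 10 of neurons, glia and vessels whatever their values, the 10 members with the best height ranks among shared promoter peaks, the 5 with the tallest promoter peak in 1 library alone, and the 10 with the most distal peaks; other members are named to account for each subfamily, and peaks shown as sequences were picked from their values. Alternatives were the longer lists, the taller 50% of each list, merged peaks, other distances and overlaps, coding transcripts and the nearest TSS. Chosen after seeing the data were peaks near the TSS of 1 gene alone, the equal number for 3 further counts and the CTCF match with 1 letter differing. The results of some named genes are not reported here.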

Additional observations from a re-analysis of the deposited data

How the results depend on the processing

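No paired analysis was possible because there is 1 group, so no groups share replicate numbers. Of 66 alternatives for the counts over all members, 39 stayed within 1.5 times the count reported and 27 did not. With the longer deposited lists, 44 genes had a promoter peak in replicate 2, beside 59.7% of all genes, and 39 a shared one, beside 53.5%. Distal peaks then numbered 295 at equal number, 172 in replicate 2 and 123 shared. With the taller 50% of each list, 7 genes had a promoter peak in replicate 2, beside 39.0%, and 4 a shared one, beside 33.6%. Distal peaks then numbered 61 at equal number and 40 in replicate 2. At equal number, in part chosen after seeing the data, 28 genes had a promoter peak in replicate 1, beside 49.6%, and 6 a shared one, beside 37.5%. A promoter peak in replicate 1 alone was then found at 16, beside 5.25%, and in replicate 2 alone at 13, beside 7.08%. With coding transcripts only, 1 gene had a promoter peak in replicate 2 alone, beside 0.466%. The whole list of replicate 1 gave 670 distal peaks. Distal limits of 25 kb gave 96, 43 and 28 peaks (equal number, replicate 2, shared) and of 100 kb 252, 166 and 107, and counting the nearest TSS only gave 101, 44 and 29. An overlap of at least 50% of both peaks left 9 genes with a shared promoter peak, beside 26.6%. Leaving out 1 replicate leaves nothing to share, so these values are the counts of the other library: 25 to 71 genes with a promoter peak and 74 to 670 distal peaks. At single genes and for the CTCF match, 31 alternatives moved 13 values by over 1.5 times, Kcnj12 and Kcna7 to 0 with the taller 50% and Kcnrg to 0 within 25 kb.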
